A study of Mus musculus with 4 samples.

Results

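Sprouty, Spred and Phlda proteins and Errfi1 are brakes on growth factor signalling, and their transcripts were measured in 4T1 cells with and without a knockdown of Ldha. The members were the 9 genes Spry1, Spry2, Spry4, Spred1, Spred2, Spred3, Phlda1, Phlda2 and Errfi1, chosen by name: a probe set entered where the platform's annotation gave exactly that gene symbol. Each of the 9 had 1 probe set, and all 9 were among the 22180 genes tested. 4T1 is a mouse mammary carcinoma line. The control cells carried a short hairpin RNA of scrambled sequence (scramble, 2 arrays), and the knockdown cells carried a hairpin against Ldha (shLDHA, 2 arrays), which encodes subunit A of lactate dehydrogenase. The shLDHA cells were selected with puromycin at 10 µg/ml and mixed, so they were a pool and not a clone. No such selection is stated for the scramble cells, so that selection and knockdown cannot be told apart. Both lines were grown in culture for 24 hours in complete RPMI medium, and each whole-transcript Affymetrix array took labelled material from 400 ng of total RNA. Whether the 2 replicates of a group were separate cultures is not stated. The p-values then measure no more than the spread between arrays, possibly technical, and the precision is limited by the number of arrays.

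Growth factors such as EGF and FGF activate receptor tyrosine kinases, which load RAS with GTP and switch on the kinases RAF, MEK and ERK in turn. ERK signalling induces the transcription of several of its own inhibitors, which makes the pathway a negative feedback loop. Sprouty proteins and the related Spred proteins share a cysteine-rich domain at the C terminus and act between the receptor and RAF, and Spred proteins recruit the RAS inactivator neurofibromin. Errfi1, also called Mig-6, binds the kinase domain of EGF receptors and blocks it. Phlda1 and Phlda2 each carry a pleckstrin homology domain, which can bind membrane lipids. Phlda1 is also known as an early-induced gene with reported roles in cell death, and Phlda2 is an imprinted gene that restrains growth of the placenta.

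The 4 arrays had medians between 3.87 and 3.90 on the log2 scale over 41345 probe sets, and Ldha itself was 1.51-fold lower in shLDHA (log2 change -0.59, SE 0.12, limma adjusted p = 0.0390). The Ldha call was lost with the replicate number as a block (limma adjusted p = 0.0734) and without scramble replicate 2 (0.128), shLDHA replicate 1 (0.0965) or shLDHA replicate 2 (0.163). All 9 members read above 4.19 on every array, the level that 95% of 1105 olfactory receptor genes, a reference for silent genes, did not exceed. The lowest member value was 5.34. Of 8 epithelial markers, Epcam (0.53) and Krt8 (0.47) were higher and Cldn7 (-1.06) lower in shLDHA, and their part in the results below was not tested. The Epcam and Krt8 calls were lost with any 1 of the 4 arrays left out (limma adjusted p = 0.0650 to 0.114). The mean log2 level over those 8 markers was 8.66 to 8.67 in scramble and 8.65 in shLDHA. No marker passed among 7 tested of fibroblasts, 6 of leukocytes and 5 of endothelium, whose mean log2 levels per array were 3.55 to 3.64, 2.90 to 3.01 and 3.05 to 3.07. All 6 leukocyte and 5 endothelial markers and 6 of the 7 fibroblast markers read below the olfactory receptor level on every array, among them Ptprc at 2.58 to 2.80, Pecam1 at 3.63 to 3.83 and Col1a1 at 3.43 to 3.68. The exception was Pdgfra, a PDGF receptor gene, at 6.38 to 6.61.

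The knockdown cells held less RNA of 5 of the 9 brakes. Phlda1, Spred3, Spry4, Errfi1 and Spry2 fell, in that order of size, by 2.36-fold to 1.35-fold. No member rose. Spry1, Spred1, Spred2 and Phlda2 did not pass the test. The threshold was an adjusted p under 0.05 in limma (Benjamini-Hochberg, over all genes), and by that rule 2.99% of all genes tested were lower and 3.37% higher. The median log2 change was -0.43 over the 9 members and 0.01 over all genes tested. All 9 members read at or above the 64.3 percentile of level among all genes tested, and they were chosen with earlier results of these data known. Both shLDHA arrays lay below both scramble arrays for 7 of the 9 members, against 24% of all genes. In bulk RNA, fewer cells expressing a gene and less RNA per cell cannot be told apart.

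**Figure D1:**
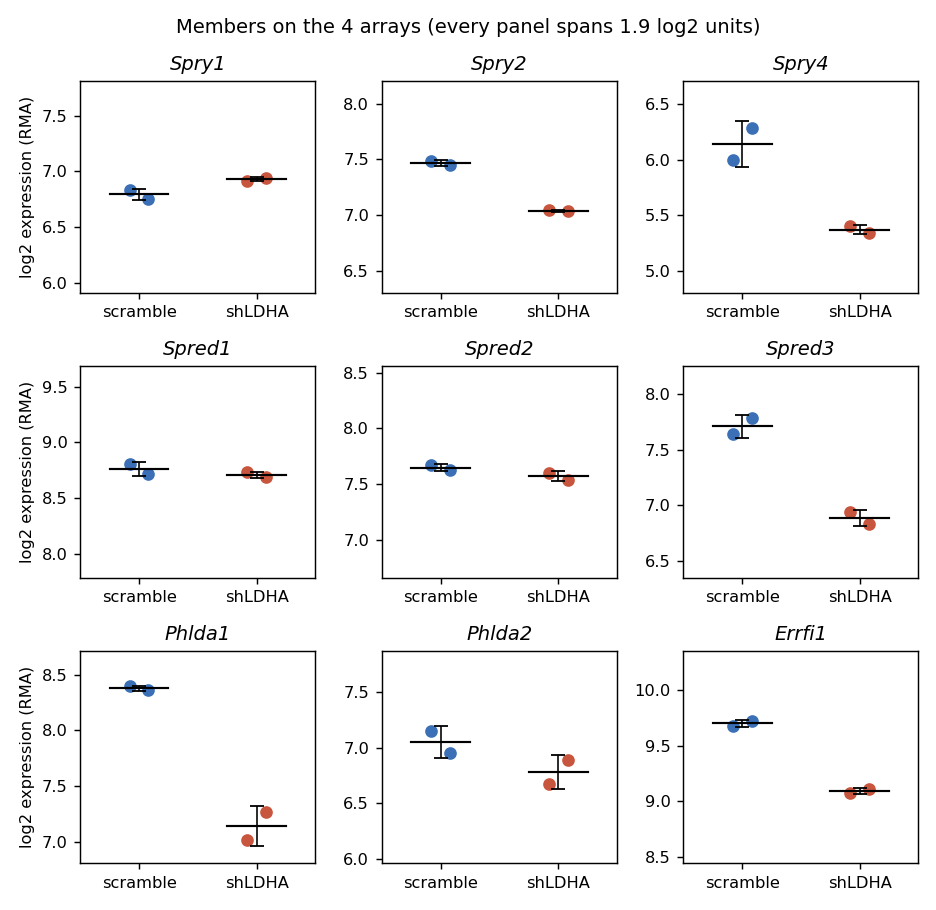
Log2 expression of the 9 members on each array (points; scramble blue, shLDHA red), with the group mean (line) and SD (bars, n = 2); every panel spans the same 1.9 log2 units, so the drops can be compared by eye. Phlda1 has the widest step, from 8.38 to 7.14, while the groups of Spred1 overlap.

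Of the 3 Sprouty genes, Spry4 and Spry2 fell and Spry1 did not pass. In scramble, Spry4 read 5.998 and 6.28 on the log2 scale, and in shLDHA it read 5.40 and 5.34. The groups did not overlap, and the closest arrays of different groups were 0.60 apart, against 0.29 between the scramble arrays. The means were 6.14 ± 0.20 and 5.37 ± 0.04 (SD, n = 2 each). Spry4 was thus 1.70-fold lower (log2 change -0.77, SE 0.11), with a limma adjusted p of 0.0159. Spry2, the Sprouty protein best known as a substrate of receptor kinases and a partner of the ubiquitin ligase Cbl, read 7.48 and 7.45 in scramble and 7.04 and 7.03 in shLDHA. Its arrays agreed within 0.03 in each group while the groups lay at least 0.40 apart. The log2 change was -0.43 (SE 0.08), or 1.35-fold lower, with a limma adjusted p of 0.0325, and the call was lost with the replicate number as a block (adjusted p = 0.0683). Spry1 read 6.83 and 6.75 in scramble and 6.92 and 6.94 in shLDHA. Both shLDHA arrays were above both scramble arrays, by 0.09 at the closest, as in 26.2% of all genes. The log2 change of Spry1 was 0.14 with a 95% interval of -0.06 to 0.34 (limma adjusted p = 0.421), so a fall of the size seen in Spry2 lies outside that interval. The fourth gene of the family, Spry3, read 2.27 to 2.64 on all arrays, below the olfactory receptor level, and did not pass.

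Among the 3 Spred genes the fall was in Spred3. It read 7.64 and 7.79 in scramble and 6.94 and 6.84 in shLDHA. The groups were 0.70 apart at the closest, and arrays within a group differed by up to 0.15. The means were 7.71 ± 0.10 and 6.89 ± 0.07 (SD, n = 2 each), which is 1.77-fold lower (log2 change -0.82, SE 0.09), with a limma adjusted p of 0.00665. Spred1, the family member mutated in Legius syndrome, read 8.80 and 8.72 in scramble and 8.73 and 8.69 in shLDHA, with overlapping groups. Its log2 change was -0.05 with a 95% interval of -0.26 to 0.15. Spred2 read 7.67 and 7.63 in scramble and 7.60 and 7.54 in shLDHA, which did not overlap but were 0.03 apart at the closest, less than the 0.06 between the shLDHA arrays. The log2 change of Spred2 was -0.08 with a 95% interval of -0.28 to 0.12. The limma adjusted p was 0.792 for Spred1 and 0.666 for Spred2.

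Phlda1 had the largest change of the 9 members. It read 8.40 and 8.36 in scramble and 7.01 and 7.27 in shLDHA. The lowest scramble array exceeded the highest shLDHA array by 1.09, while the shLDHA arrays differed from each other by 0.26. The means were 8.38 ± 0.02 and 7.14 ± 0.18 (SD, n = 2 each), a log2 change of -1.24 (SE 0.11), so that 42.4% of the scramble level remained (limma adjusted p = 0.00283). By the size of its p-value Phlda1 ranked 112 among the 22180 genes. Phlda2 read 7.15 and 6.95 in scramble and 6.67 and 6.89 in shLDHA. The closest arrays of different groups were 0.07 apart, and the shLDHA arrays differed from each other by 0.21. The log2 change of Phlda2 was -0.27 (SE 0.11) and did not pass (limma adjusted p = 0.234). The related Phlda3, a p53 target that competes with AKT for membrane lipids, did not pass either (0.07, SE 0.12).

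Errfi1, the EGF receptor inhibitor, was lower on both shLDHA arrays than on either scramble array. It read 9.68 and 9.72 in scramble and 9.07 and 9.11 in shLDHA. The groups were 0.56 apart at the closest and arrays within a group differed by at most 0.05. The means were 9.70 ± 0.03 and 9.09 ± 0.03 (SD, n = 2 each), which is 1.52-fold lower (log2 change -0.61, SE 0.08), with a limma adjusted p of 0.0118.

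**Figure D2:**
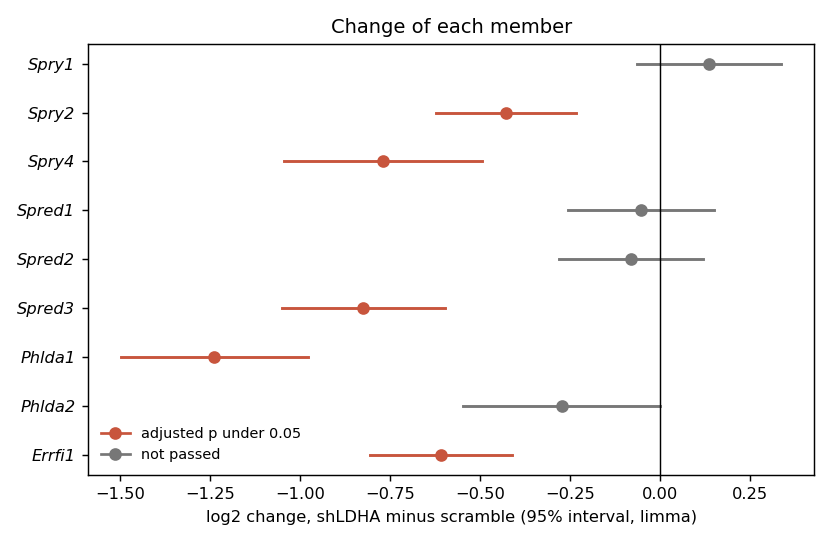
Log2 change of each member, shLDHA minus scramble (points), with the 95% interval from limma (bars); red marks an adjusted p under 0.05. The intervals of the 5 red genes lie wholly below 0, from Phlda1 at -1.24 to Spry2 at -0.43, and the other 4 reach 0 or cross it.

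Within the Sprouty, Spred and Phlda families the calls were split between members. The difference between 2 members' log2 changes was computed for 7 within-family pairs from the 4 array values, over which 2 arrays against 2 allow an exact two-sided permutation p no smaller than 0.333. Phlda1 fell by 0.96 more than Phlda2, and the 4 pairings of a shLDHA with a scramble array gave differences from -1.07 to -0.86. Spry4 and Spry2 changed by -0.91 and -0.56 relative to Spry1, with ranges of -1.13 to -0.68 and -0.61 to -0.52. Spred3 changed by -0.77 relative to Spred1 and by -0.74 relative to Spred2, with ranges of -0.92 to -0.63 and -0.86 to -0.63. Spry4 changed by -0.34 relative to Spry2, with a range of -0.52 to -0.16. Each of these 6 pairs had the smallest possible p of 0.333 (0.389 adjusted over the 7 pairs), in a permutation test that cannot place any of them past a threshold. Spred2 and Spred1 differed by -0.03 (range -0.06 to 0.00, exact permutation p = 0.667).

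The promoters of 3 of the 5 genes that fell are shown to set their letters side by side, since their transcripts changed in the same direction. RefSeq (GRCm38.p6) windows of 7 of the 9 members were searched, with 8 start sites. Spry4 and Phlda1, which also fell, were not among them, and the search left out the chromosome of Spry4. The 250 bases before each start were searched on both strands for 7 motifs: an AP-1 site (TGANTCA), a cAMP response element (CRE, TGACGTCA), an ETS site (CCGGAAG), an NF-kB site by name, the GC box (GGGCGG), the TATA box (TATAAA) and the serum response element by name. Capitals mark the matches, and the sequences run 5′ to 3′ on the gene's strand, ending at the base before the start.
Errfi1, chr4:150854820-150855069, plus strand: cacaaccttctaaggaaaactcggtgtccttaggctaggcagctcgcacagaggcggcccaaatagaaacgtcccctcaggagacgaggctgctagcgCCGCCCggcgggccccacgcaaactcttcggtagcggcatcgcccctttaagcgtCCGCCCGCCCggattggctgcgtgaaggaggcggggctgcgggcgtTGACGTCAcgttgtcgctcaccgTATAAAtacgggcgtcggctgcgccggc
Spred3, chr7:29168648-29168897, minus strand: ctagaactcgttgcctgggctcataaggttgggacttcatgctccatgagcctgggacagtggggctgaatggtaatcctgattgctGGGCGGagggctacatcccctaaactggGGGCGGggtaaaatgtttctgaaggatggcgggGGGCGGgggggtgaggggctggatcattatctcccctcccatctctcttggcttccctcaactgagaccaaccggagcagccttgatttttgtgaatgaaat
Spry2, chr14:105896820-105897069, minus strand: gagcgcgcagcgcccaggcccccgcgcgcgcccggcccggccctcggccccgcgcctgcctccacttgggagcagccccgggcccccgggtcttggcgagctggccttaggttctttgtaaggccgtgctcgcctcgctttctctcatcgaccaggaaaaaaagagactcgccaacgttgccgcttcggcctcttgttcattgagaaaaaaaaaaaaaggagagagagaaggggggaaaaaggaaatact
Errfi1 had a CRE from 51 to 44 bases before the start, a TATA box from 28 to 23 and 3 GC boxes, of which those at 97 to 92 and 93 to 88 overlap. A CRE of these letters was found in 1.55% of all 32851 promoter windows, a TATA box in 12.4% and a GC box in 32.7%. Spred3 held 3 GC boxes and no other match, and Spry2 had no match to any of the 7. The other listed Errfi1 start, further upstream, had no match either. The RefSeq gene spans of Errfi1 and Spred3 begin upstream of the starts shown. Over the 8 windows of members, 6 held a GC box, 2 a TATA box (Errfi1 and Phlda2, which did not pass) and 1 a CRE. The 6 windows with a GC box were 55.6% to 70.8% G or C, against a median of 52.4% over all promoters. Whether base content accounts for their GC boxes was not tested. AP-1, ETS, NF-kB and serum response element letters were in 0 of the 8, and in 6.75%, 6.91%, 1.41% and 1.47% of all windows. These are matches of letters within 250 bases and say nothing of sites elsewhere.

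The genes beside each member on the chromosome were read as well. The nearest tested protein-coding gene on each side, by the order of RefSeq genes, was taken for each member. Of these 18 neighbours 0 passed the limma test, against 6.36% of all genes tested, and 6 had an unadjusted p under 0.05, against 21.5% of all genes. Beside the 5 members that fell, the 10 neighbours changed by -0.45 to 0.39 with a median of -0.02. The lowest was Ndfip2 beside Spry2 (-0.45, SE 0.11, limma adjusted p = 0.0713), followed by Arhgap26 beside Spry4 (-0.38, SE 0.09, adjusted p = 0.0685). The neighbours of Phlda1, Nap1l1 (0.00, SE 0.09) and Krr1 (0.05, SE 0.08), did not pass.

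Genes of the pathway that the brakes act on were read from 4 lists: receptors and adaptors, the RAS-ERK core, transcripts induced by ERK, and other inhibitors and partners of the members. Of 99 genes tested in these lists, 15 were lower and 6 higher in shLDHA, or 21.2%, against 6.36% of all genes tested, and the median log2 change was -0.15. The lists were chosen with earlier results of these data known. Their genes also read higher, with means of 6.74 to 6.91 per array against 4.93 over all genes tested. How much of the difference in calls goes with level was not tested. The ERK-induced transcripts held 9 of the 15 falls. Of 25 tested, 9 were lower and 2 higher, with a median log2 change of -0.22, and 5 to 7 of the 25 passed with an array left out. The EGF receptor ligand gene Hbegf changed by -1.27 (SE 0.09), the ERK phosphatase gene Dusp5 by -1.28 (SE 0.10), Ier3 by -1.29 (SE 0.10) and the cytokine gene Lif by -1.19 (SE 0.12), sizes close to that of Phlda1. The transcription factor gene Egr1 changed by -0.88 (SE 0.10) and the urokinase receptor gene Plaur by -0.57 (SE 0.08). Hbegf, Dusp5, Ier3, Lif and Egr1 passed in all 13 alternative settings, and Plaur was lost without scramble replicate 1 or either shLDHA replicate (limma adjusted p = 0.067 to 0.0801). Dusp6, a phosphatase specific for ERK, fell by 0.48 on the log2 scale (limma adjusted p = 0.0253), but lost the call with the mean of its probe sets (-0.32, adjusted p = 0.153), under the replicate block (0.0548) and with any 1 of the 4 arrays left out (0.0726 to 0.116). The 2 that rose were the transcription factor genes Fos (0.75, SE 0.13, limma adjusted p = 0.0262) and Etv1 (0.47, SE 0.09, adjusted p = 0.0281). Those 2 calls were not followed gene by gene over the alternative settings. The transcription factor genes Junb (0.03, SE 0.09) and Egr3 (-0.001, SE 0.14) did not pass, so the list did not move in 1 direction. Etv1 is an ETS factor gene, and the ETS factor genes Etv4 (-0.41, limma adjusted p = 0.0501) and Etv5 (-0.18, adjusted p = 0.467) did not pass.

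**Figure D3:**
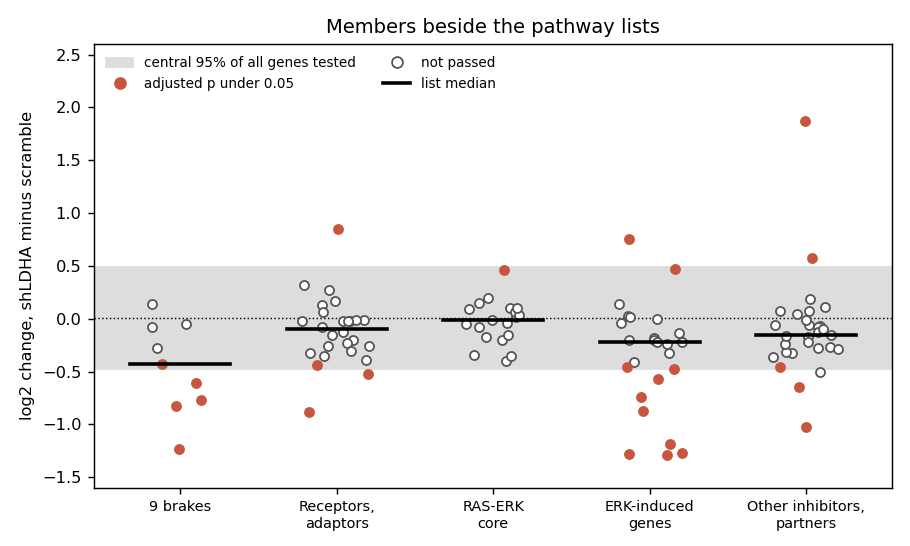
Log2 change, shLDHA minus scramble, of the 9 members and of the genes of the 4 pathway lists (points; red, adjusted p under 0.05), with each list's median (bar) and the central 95% of all genes tested (grey, -0.48 to 0.49). The members and the ERK-induced genes have the lowest medians, at -0.43 and -0.22, and the RAS-ERK core sits near 0.

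The kinases and GTPases between receptor and ERK passed about as often as all genes. Of 19 tested genes of the RAS-ERK core, 1 rose and 0 fell (5.26% called, against 6.36% of all genes tested), and the median log2 change was -0.01. The gene that rose was the RAS-related GTPase gene Mras (0.46, SE 0.10), which passed in 6 of 13 alternative settings. It was lost under the replicate block (limma adjusted p = 0.0683), both other normalizations (0.0519 and 0.0565) and with any 1 of the 4 arrays left out (0.0603 to 0.188). Nf1, the neurofibromin gene whose product Spred proteins recruit, changed by -0.40 (SE 0.09, limma adjusted p = 0.0598), and passed in 4 of 13 alternative settings. The RAF kinase gene Braf (-0.36, SE 0.11) and the RAS inactivator gene Rasa1 (0.06, SE 0.10) did not pass. Of 26 receptors and adaptors, 3 fell and 1 rose (15.4% called, against 6.36% of all genes tested), and 1 to 3 passed with an array left out. Erbb3, the receptor for neuregulins, rose by 0.85 (SE 0.08), while the insulin receptor substrate gene Irs1 changed by -0.88 (SE 0.11) and the ubiquitin ligase gene Cblb by -0.44 (SE 0.08). Irs1 changed by -0.46 with the mean of its probe sets and was lost without shLDHA replicate 2 (limma adjusted p = 0.0514). Cblb was lost under the replicate block (limma adjusted p = 0.0651) and with any 1 of the 4 arrays left out (0.1005 to 0.129). The third call, the receptor gene Fgfr3, read 3.73 and 3.91 in scramble and 3.31 and 3.29 in shLDHA, all below the olfactory receptor level, so no fold is given. Egfr, the receptor that Errfi1 blocks, changed by -0.33 (SE 0.10, limma adjusted p = 0.110). Erbb2 (0.27, SE 0.09) and Met (-0.23, SE 0.10) did not pass, nor did Fgfr1, which read 3.53 to 3.70, below the olfactory receptor level.

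Other inhibitors moved in both directions. Of 29 tested inhibitors and partners, 3 fell and 2 rose (17.2% called, against 6.36% of all genes tested), with a median log2 change of -0.15, and 2 to 3 passed with an array left out. Lrig1, a membrane protein that lowers the level of EGF receptors, changed by -1.03 (SE 0.09), the receptor phosphatase gene Ptprj by -0.65 (SE 0.10) and Dyrk1a, a kinase that phosphorylates Sprouty2, by -0.46 (SE 0.08). Ptprj was lost without scramble replicate 2 or either shLDHA replicate (limma adjusted p = 0.0675 to 0.0972), and Dyrk1a under the replicate block (0.0589) and with any 1 of the 4 arrays left out (0.0969 to 0.115). Cav1, the caveolin gene whose product binds Sprouty proteins, rose by 1.87 (SE 0.16), from 4.52 and 4.03 in scramble to 6.06 and 6.24 in shLDHA. Its second scramble array lay below the olfactory receptor level of 4.19, so the size of the rise is uncertain. The cytokine signalling inhibitor gene Socs2 rose by 0.57 (SE 0.12), but passed in 5 of 13 alternative settings. It changed by 0.31 with the mean of its probe sets (limma adjusted p = 0.114), and the call was also lost under the replicate block (0.0798), both other normalizations (0.0630 and 0.0527) and with any 1 of the 4 arrays left out (0.0594 to 0.149). Il17rd, also called Sef, an FGF signalling inhibitor, read 3.33 to 3.78, below the olfactory receptor level, and did not pass.

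The imprinted region around Phlda2 was read from 17 tested genes, of which 0 fell and 1 rose (5.88% called, against 6.36% of all genes tested). The gene that rose was the tetraspanin gene Cd81 (0.60, SE 0.09), which was lost without scramble replicate 2 or either shLDHA replicate (limma adjusted p = 0.0602 to 0.0843). Cdkn1c, an imprinted growth inhibitor like Phlda2, did not pass and read 3.37 to 3.52, below the olfactory receptor level.

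For each member that fell, the genes with the most similar values were found by the Euclidean distance between array values, each centred on its own mean over the 4 arrays, among genes at or above the median level. Over 4 arrays such a distance mostly reflects the size of the change and the spread within groups. For Phlda1 they were Ier3 (distance 0.07, log2 change -1.29) and Erc2 (distance 0.07). Both read higher on the second shLDHA array than on the first, as Phlda1 did, which the distance itself takes in. Erc2 read 3.45 and 3.64 in shLDHA, below the olfactory receptor level, so no fold is given. It met the filter only through scramble, where it read 4.73 and 4.75. For Spry2 they were Thap6 (0.02, -0.43) and Nabp1 (0.03, -0.40), and for Spry4 they were Glipr2 (0.07, -0.76) and Fsd1l (0.08, -0.70). For Spred3 they were Carhsp1 (0.04, -0.84) and Abtb2 (0.05, -0.80), and for Errfi1 they were Noct (0.02, -0.63) and Aldh7a1 (0.04, -0.58).

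The 5 calls did not rest equally on the 4 arrays. Phlda1 and Spred3 passed in all 13 alternative settings, Spred3 with a limma adjusted p of 0.04995 at the highest, without shLDHA replicate 2. Spry4 passed in 11, with losses without shLDHA replicate 1 (limma adjusted p = 0.0735) and shLDHA replicate 2 (0.0872). Errfi1 passed in 10, with losses without scramble replicate 2 (limma adjusted p = 0.0513), shLDHA replicate 1 (0.0664) and shLDHA replicate 2 (0.0616). Spry2 passed in 8, with losses under the replicate block, where 4 members and 1.83% of all genes were lower, and with any 1 of the 4 arrays left out (limma adjusted p = 0.111 to 0.137). The count of members lower was 4 and 3 without scramble replicate 1 and 2, where 1.42% and 1.42% of all genes were lower. It was 2 and 2 without shLDHA replicate 1 and 2, where 0.996% and 0.992% were. The size of each fall moved less, from -1.37 to -1.11 for Phlda1, -0.90 to -0.75 for Spred3, -0.91 to -0.62 for Spry4, -0.64 to -0.58 for Errfi1 and -0.46 to -0.41 for Spry2.

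**Figure D4:**
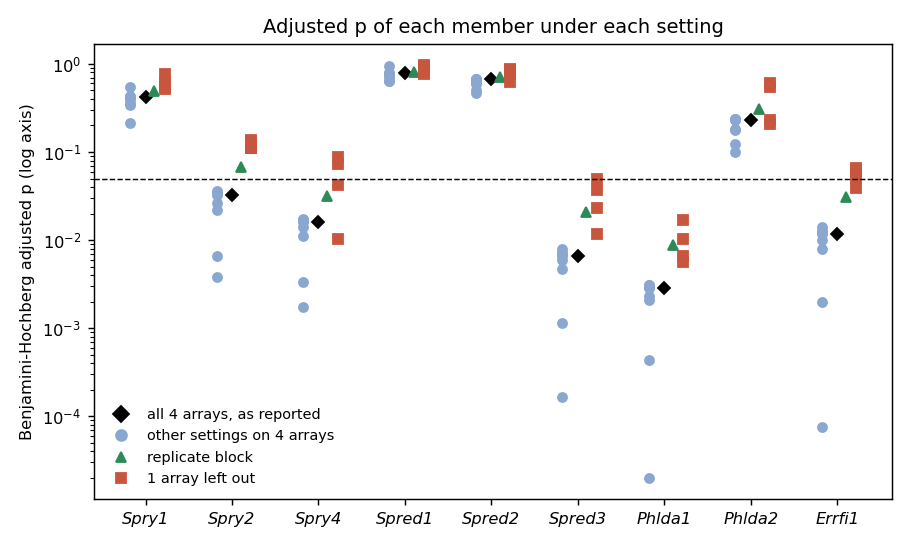
Limma adjusted p (log axis) of each member with all 4 arrays as reported (black), under other settings on 4 arrays (blue), with the replicate number as a block (green) and with 1 array left out (red); the dashed line is 0.05. Phlda1 and Spred3 stay at or below the line throughout, and Spry2 rises above it whenever an array is left out.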

How the data were processed

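The authors deposited log2 expression values for 4 arrays, with RMA and R 3.4.0 named in the submitters' processing notes. RMA usually includes background correction, quantile normalization and a summary per probe set. Signals near the floor are compressed, so folds of dim genes may be understated. Of 41345 probe sets, 23521 had exactly 1 gene symbol in the platform annotation. For 1082 genes with several, the probe set with the highest mean was kept, which left 22180 genes, with no filter and 0 columns of values left out. Groups came from the sample titles. The values were fitted by lmFit and eBayes of limma 3.58.1 under R 4.3.3 (all 4 arrays, no covariate, two-sided), with 2 residual and 4.52 prior degrees of freedom and Benjamini-Hochberg adjustment over all genes. Adjusted p-values and SEs in the text are from this fit, and SDs are over 2 arrays. The code was tested on simulated data. The members and gene lists were chosen with earlier results of these data known, the motifs and chromosomal neighbours were added with the values in view, and no list was tested as a set. Genes named were the 9 members, Ldha, 16 fixed genes (2 of them are not reported here), up to 6 passing genes per list by smallest p, and the 2 nearest genes in pattern of each member that fell. Fos, Etv1, Junb and Egr3 of the ERK-induced list were named in addition, with their values in view. They are not among the 34 other named genes followed over the alternative settings. Same-numbered replicates did not deviate together (correlation of deviations -0.03 across genes), so no pairing was assumed. Alternatives were a replicate block, 2 filters on level, 2 normalizations, 2 treatments of probe sets, 2 forms of eBayes, each array left out (13 settings) and a threshold of 0.1. Python 3.11.15, scipy 1.17.1 and matplotlib 3.10.9 were used for exact tests and figures.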

Additional observations from a re-analysis of the deposited data

How the results depend on the processing

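Over the 13 alternative settings and the threshold of 0.1, no member changed direction and none of the 4 that did not pass came to pass. With the replicate number as a block, Spry2 (log2 change -0.43, adjusted p = 0.0683) and Ldha (-0.59, adjusted p = 0.0734) lost the call and no member beside Spry2 did. Under that block 433 genes were higher and 405 lower over all genes, against 747 and 663 without it, and 13 genes of the 4 pathway lists passed, against 21. The filter at the median of the higher group mean gave 1477 higher, 1359 lower and 33 genes of the lists. With a trend, eBayes gave 1425, 1381 and 35, and the threshold of 0.1 gave 1271 higher and 1120 lower. Fewer genes tested is part of what the filter changes; the cause of the other shifts was not tested. With each array left out in turn, which leaves 1 residual degree of freedom and 1 group with a single array assumed to vary like the rest, 150 to 322 genes were higher and 220 to 316 lower. The members lower were then 2 to 4 and the genes of the lists that passed 8 to 11. Log2 changes ran from -0.44 to -0.41 for Spry2, -0.91 to -0.62 for Spry4, -0.63 to -0.58 for Errfi1 and -0.73 to -0.45 for Ldha. Of the 34 other named genes, 5 that did not pass changed sign when an array was left out: Spry3 (-0.34 to 0.037), Phlda3 (-0.058 to 0.21), Fgfr1 (-0.11 to 0.061), Rasa1 (-0.012 to 0.14) and Cdkn1c (-0.097 to 0.052). Of 470 values of these 34 genes under the alternatives, 54 lost a call, 41 of them with an array left out, and 14 gained one. Signal over background limits Spry3, Fgfr1, Fgfr3, Il17rd and Cdkn1c, which read below the level of silent genes on every array, Erc2 in shLDHA and Cav1 on 1 scramble array.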
